A study of Mus musculus with 52 samples.

Results

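The 4 mouse Hox clusters were examined across fibroblasts driven to pluripotency, through 43 lists of ChIP-seq peaks. The members are 38 Hox genes: 10 in HoxA, 10 in HoxB, 9 in HoxC and 9 in HoxD. They were located by mm9 windows set for each cluster: HoxA chr6:52095001-52225000 (130 kb), HoxB chr11:96040001-96240000 (200 kb), HoxC chr15:102740001-102880000 (140 kb) and HoxD chr2:74490001-74610000 (120 kb). Every peak sharing at least 1 bp with a window was kept, which gave 2448 of the 928298 peaks in all lists. ChIP-seq (chromatin immunoprecipitation and sequencing) reports the stretches of genome that an antibody enriches.

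Mouse embryonic fibroblasts (MEF) carried a doxycycline-inducible set of the 4 reprogramming factors Oct4, Sox2, Klf4 and Myc (OSKM). The cells were Mbd3+/+ or Mbd3flox/-, the latter with a floxed and a null allele of Mbd3. They were sampled before induction, at days 4 and 8 of doxycycline at 2 µg/ml, and as induced pluripotent stem (iPS) cells. Mbd3-/- embryonic stem (ES) cells were the remaining group. MEF were grown in DMEM with serum, and the other cells in a serum-replacement medium with 2i and LIF, so medium and stage change together. Each genotype was a selected clonal series, and the Mbd3+/+ clone carried the GOF18 deltaPE-Oct4-GFP reporter where the Mbd3flox/- and Mbd3-/- cells carried the complete GOF18 Oct4-GFP reporter. Genotype, clone and reporter therefore cannot be told apart. Only 1 library stands for each antibody in a given genotype and stage. No difference has a replicate check, and no test was made.

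Hox genes encode homeodomain transcription factors that give cells their position along the body axis. In each cluster they lie in the order in which they act, from the head side (Hoxa2, Hoxb1, Hoxc4, Hoxd1) to the tail, limb-tip and genital side (Hoxa13, Hoxb13, Hoxc13, Hoxd13). Fibroblasts keep part of the Hox pattern of the body region they came from, whereas pluripotent cells hold the clusters largely silent under Polycomb. Polycomb deposits H3K27me3, trimethylation of lysine 27 of histone H3. The same lysine carries H3K27ac at active promoters and enhancers, and a single histone tail cannot carry both. H3K4me3 marks promoters of CpG-rich genes and lies together with H3K27me3 at many silent developmental genes of pluripotent cells. Mbd3 and the remodeller Mi2B belong to NuRD, a complex that joins deacetylation of histones to nucleosome remodelling, and Oct4 is both a reprogramming factor and a core regulator of pluripotency.

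The start regions of the genes differ widely in the CpG pairs to which H3K4me3 and Polycomb machinery are known to be drawn. RefSeq promoters (GRCm38.p6, from 250 bases before to 50 after a start) were given for 22 of the 38 members, as 24 sequences. They held a median of 14.5 CpG pairs, from 4 to 45, against a median of 7.00 over all 32851 promoters given. An observed-to-expected CpG ratio of at least 0.6 was met by 50.0% of the Hox promoters and by 35.8% of all promoters. The sequences shown are the highest in CpG (Hoxa13), one of 3 tied for the lowest (Hoxa9), and the outer genes of the clusters for which both outer genes had a promoter (Hoxa2 and Hoxa13, Hoxd13 and Hoxd1). They are read 5′ to 3′ on the gene's strand, and capitals mark each CG pair.
Hoxa13: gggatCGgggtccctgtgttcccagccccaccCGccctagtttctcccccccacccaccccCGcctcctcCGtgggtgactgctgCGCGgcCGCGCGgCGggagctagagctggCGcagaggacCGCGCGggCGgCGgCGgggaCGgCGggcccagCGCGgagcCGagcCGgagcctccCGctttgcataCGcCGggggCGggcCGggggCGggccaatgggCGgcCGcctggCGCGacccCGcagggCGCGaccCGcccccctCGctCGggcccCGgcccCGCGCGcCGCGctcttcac
Hoxa2: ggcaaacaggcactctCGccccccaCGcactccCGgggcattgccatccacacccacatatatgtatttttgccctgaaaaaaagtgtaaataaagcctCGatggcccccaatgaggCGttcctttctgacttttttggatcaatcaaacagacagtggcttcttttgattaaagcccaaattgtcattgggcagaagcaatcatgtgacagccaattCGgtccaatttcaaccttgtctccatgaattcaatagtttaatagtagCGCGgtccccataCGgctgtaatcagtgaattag
Hoxa9: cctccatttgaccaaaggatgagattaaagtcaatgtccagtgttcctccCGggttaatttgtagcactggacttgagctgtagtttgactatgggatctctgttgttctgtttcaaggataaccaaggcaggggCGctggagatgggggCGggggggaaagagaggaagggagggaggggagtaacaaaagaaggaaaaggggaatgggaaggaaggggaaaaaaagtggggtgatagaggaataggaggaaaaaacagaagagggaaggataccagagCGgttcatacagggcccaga
Hoxd13: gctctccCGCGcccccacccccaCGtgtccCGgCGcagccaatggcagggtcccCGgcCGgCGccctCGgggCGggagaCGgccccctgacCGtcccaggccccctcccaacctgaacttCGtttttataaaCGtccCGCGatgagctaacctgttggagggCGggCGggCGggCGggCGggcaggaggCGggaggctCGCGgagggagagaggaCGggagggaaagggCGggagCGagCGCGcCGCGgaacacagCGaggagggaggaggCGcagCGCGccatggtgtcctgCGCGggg
Hoxd1: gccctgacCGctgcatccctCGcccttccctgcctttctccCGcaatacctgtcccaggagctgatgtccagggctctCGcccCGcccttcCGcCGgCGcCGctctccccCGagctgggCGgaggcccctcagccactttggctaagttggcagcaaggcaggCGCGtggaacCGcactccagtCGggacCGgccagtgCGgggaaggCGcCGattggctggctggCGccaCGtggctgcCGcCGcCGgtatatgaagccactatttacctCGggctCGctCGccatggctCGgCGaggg
In GRCm38.p6 these lie at chr6:52260831-52261130 (Hoxa13, minus strand), chr6:52164782-52165081 (Hoxa2, minus), chr6:52227321-52227620 (Hoxa9, minus), chr2:74667975-74668274 (Hoxd13, plus) and chr2:74762730-74763029 (Hoxd1, plus). Those coordinates belong to another build than the peaks and were not converted. Hoxa13, which patterns the digits and genital tubercle, held 45 CpG pairs, while Hoxa2, which patterns the hindbrain and the arches of the face, held 9. Hoxa9, a gene of axial skeleton and blood progenitors, held 4. Hoxd13, which like Hoxa13 acts in the digits, held 37, and Hoxd1 held 29. Since no mm9 gene annotation was used here, peaks below are given by position and by the side of the cluster, not by gene. From low to high coordinate the gene table orders the clusters as Hoxa2 to Hoxa13, Hoxb13 to Hoxb1, Hoxc13 to Hoxc4 and Hoxd13 to Hoxd1.

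Lists differed greatly in size, from 274 to 63888 peaks, and read depth is unknown, so a missing peak was not detected rather than absent. The H3K27me3 lists of the induced cells were very short: 570 peaks at day 4 of Mbd3+/+, 567 at day 4 of Mbd3flox/- and 939 at day 8 of Mbd3+/+, against 13100 to 36232 in the MEF, iPS and ES lists. The day 8 list came from more cells per immunoprecipitation than the other lists, and its sample was also recorded elsewhere. Its record describes the medium only as 2i/LIF with doxycycline, in other words than the rest, and the part of these differences in its values was not tested. For 4 of the Mbd3+/+ lists the day in the title, which was followed, is not that of the stage label: day 5 for H3K27me3, day 6 for Mbd3 and day 7 for Mi2B of day 4, and day 11 for Mi2B of day 8. H3K27me3 in Mbd3flox/- cells at day 8, Mi2B in MEF, Oct4 and Mbd3 in Mbd3+/+ cells at day 8 and Mbd3 in the other genotypes were not analysed here, which leaves no check of the genotypes by Mbd3 itself. Markers of fibroblasts or pluripotent cells were not checked either, for want of mm9 gene positions.

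In MEF of both genotypes, H3K27me3 covered most of every cluster, and HoxC and HoxD almost from end to end. In Mbd3+/+ MEF it covered 51.4% of HoxA, 73.2% of HoxB, 94.8% of HoxC and 98.1% of HoxD. In Mbd3flox/- MEF it covered 61.0%, 88.7%, 98.5% and 95.8%. With gaps of up to 1 kb closed, HoxD of Mbd3+/+ MEF was 1 segment spanning the window, and HoxC had 1 segment of 134 kb. The widest single peak of the mark in HoxC was 85007 bp in Mbd3+/+ (chr15:102732432-102817438) and 86559 bp in Mbd3flox/- MEF (chr15:102725124-102811682). HoxA differed from the rest: segments of at least 5 kb began at 52164129 in Mbd3+/+ and at 52154227 in Mbd3flox/- MEF, and the Hoxa2 side held shorter ones.

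The H3K27me3 of the clusters overlapped between the MEF of the 2 genotypes more than it did over the whole lists. Of the 468 Hox bins (1 kb, at least 500 bp covered) of Mbd3+/+ MEF, 13 were not covered in Mbd3flox/- MEF (2.78%, 95% Wilson interval 1.63 to 4.69). Over all bins of the list the share was 35.2%. In the other direction 59 of 514 Hox bins were covered in Mbd3flox/- alone (11.5%, 9.00 to 14.5), against 40.2% over all bins. All intervals count bins only, and neighbouring bins of a peak are not independent.

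Most acetylated sequence of the fibroblast clusters lay under H3K27me3 as well. Of the Hox bins with H3K27ac, 228 of 260 were also under H3K27me3 in Mbd3+/+ MEF (87.7%, 83.1 to 91.1) and 300 of 350 in Mbd3flox/- MEF (85.7%, 81.7 to 89.0). Over all H3K27ac bins of the same lists these shares were 1.00% and 0.767%. For H3K4me3 they were 57 of 94 bins (60.6%, against 3.80% over all bins) and 226 of 265 (85.3%, against 10.2%). H3K27me3 itself covered 78.6% of the 4 windows in Mbd3+/+ MEF and 86.4% in Mbd3flox/- MEF, so most sequence there lay under it. Beside that coverage, which counts bases and not bins, the H3K27ac share was higher in Mbd3+/+ and the H3K4me3 share lower. In Mbd3flox/- MEF both shares were close to it. In HoxC of Mbd3+/+ MEF 83.7 of 85.7 kb of acetylated sequence lay under H3K27me3, and in HoxD 60.5 of 61.6 kb. Bulk peaks cannot tell whether marks that overlap lie on the same chromosomes or in different cells, nor fewer marked cells from less signal per cell.

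Acetylation of HoxB and HoxC in MEF was laid out in long blocks, and some of their ends lay close together between lists. In Mbd3+/+ MEF the segments were shorter in HoxD (11, the longest 14.1 kb) and in HoxA (the longest 5.09 kb), with gaps of up to 1 kb closed. Mbd3flox/- MEF had long segments in every cluster. The longest were 78.8 kb in HoxA, 65.9 kb in HoxB, 53.5 kb in HoxC and 46.3 kb in HoxD. In HoxB of Mbd3+/+ MEF a peak of 88547 bp ran from 96129546 to 96218092, on the Hoxb1 side, and in Mbd3flox/- MEF a peak of 65864 bp ended at 96217228. The Hoxb1-side end lay within 1336 bp in 5 lists: 96218092 and 96217228 in MEF, 96217161 and 96216756 at day 4 and 96217030 at day 8 of Mbd3+/+. In HoxC the blocks of the 2 MEF lists ended on the Hoxc4 side at 102872972 and 102873220, 248 bp apart, while their other ends, 102789594 and 102802588, were 12994 bp apart. In HoxD the last acetylated segments of at least 5 kb ended on the Hoxd1 side at 74579109 and 74579098, 11 bp apart. With gaps of up to 1 kb closed, H3K27me3 ran on beyond the HoxD end to the edge of the window in both genotypes. In HoxC it ran to the edge in Mbd3flox/- MEF, but in Mbd3+/+ MEF its long segment ended at 102873570, close to the acetylated end.

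**Figure D1:**
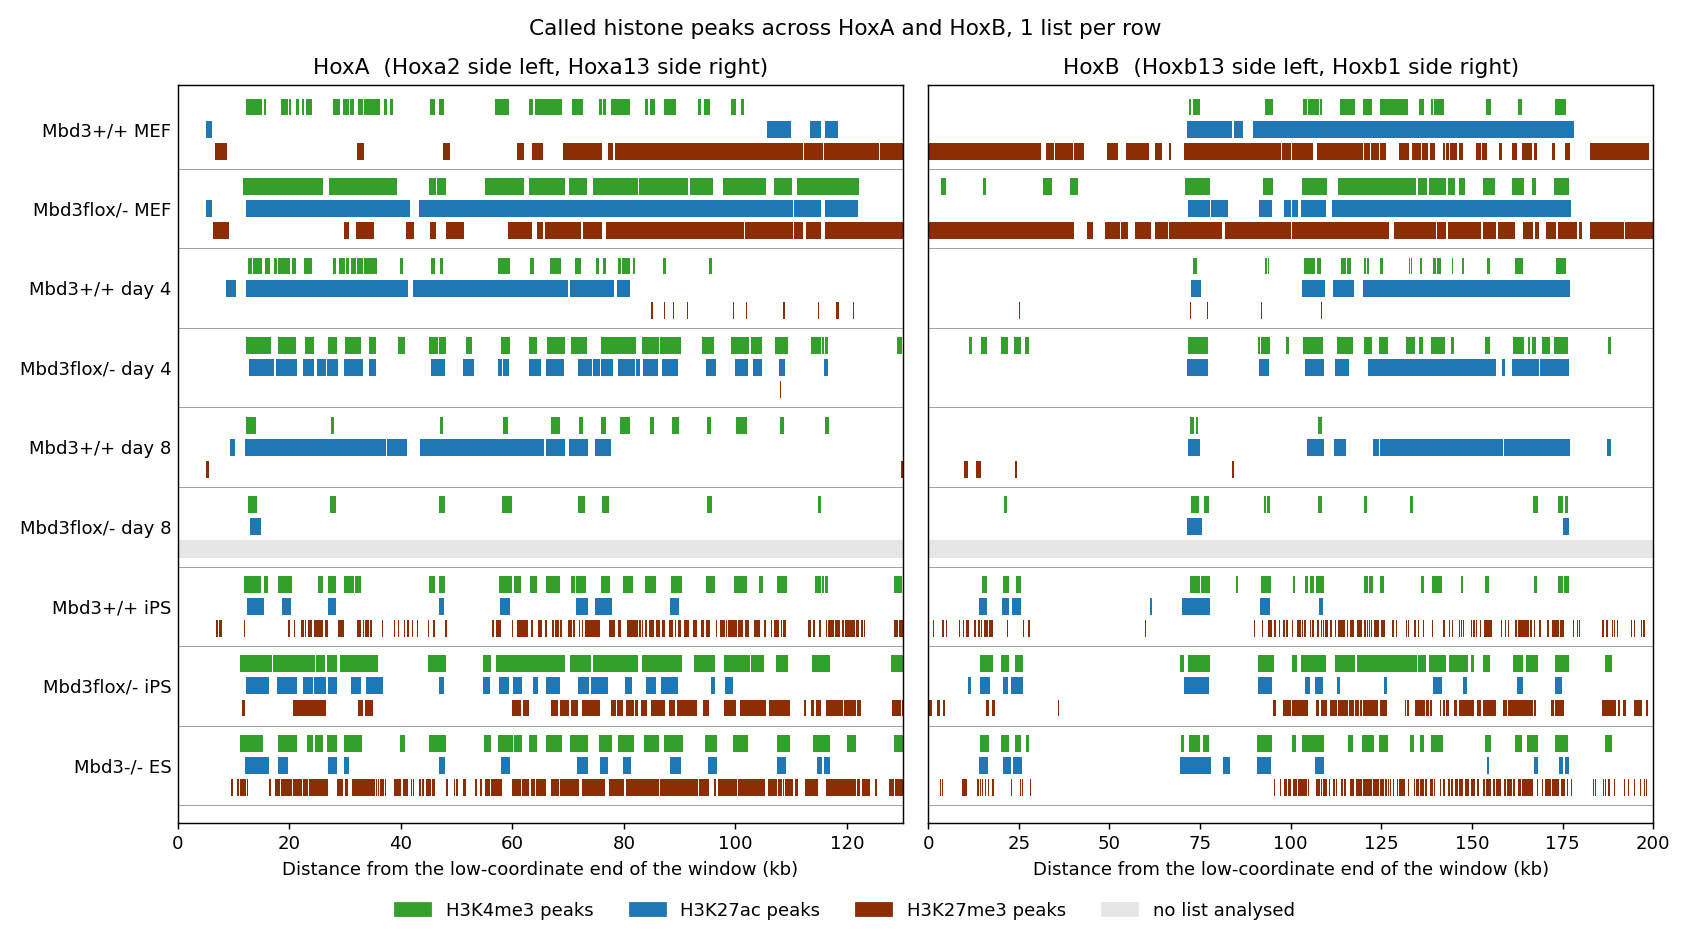
Called peaks of H3K4me3 (green), H3K27ac (blue) and H3K27me3 (brown) along HoxA and HoxB, with 1 row per list and distance from the low-coordinate end of the window in kb. The MEF rows show H3K27me3 and H3K27ac over the same sequence; at day 4 and day 8 brown is almost missing, and in the iPS and ES rows it returns as many short peaks on the Hoxb1 side of HoxB.

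HoxA was the cluster in which the MEF lists parted. H3K27ac covered 7.53% of the window in Mbd3+/+ MEF and 83.5% in Mbd3flox/- MEF. The Mbd3+/+ MEF list had no H3K27ac peak between 52101258 and 52200694, a stretch of 99.4 kb. Of the same stretch, H3K27ac covered 92.4% in Mbd3flox/- MEF, 69.3% at day 4 of Mbd3+/+, 52.2% at day 4 of Mbd3flox/- and 62.0% at day 8 of Mbd3+/+. H3K4me3 was not missing there in Mbd3+/+ MEF, with 34 peaks covering 38.7%, against 75.2% in Mbd3flox/- MEF. Over the 4 windows, 117 of the 350 bins acetylated in Mbd3flox/- MEF were not acetylated in Mbd3+/+ MEF (33.4%, 28.7 to 38.5), against 20.4% of all bins. HoxA held 100 of these 117 bins, and without it the share was 17 of 241 (7.05%), below that of all bins. Among the 80 acetylated stretches of at least 50 kb in Mbd3flox/- MEF, that of HoxA was the only one less than 10% covered by H3K27ac of Mbd3+/+ MEF, at 7.84%; the median was 93.4%. Whether the gap is one of the cells or of this 1 list was not tested, so the pooled H3K27ac values of MEF are also given without HoxA. Over the 4 windows H3K27ac covered 44.2% in Mbd3+/+ MEF and 59.1% in Mbd3flox/- MEF, a difference of 15.0 percentage points, and without HoxA 54.5% and 52.3%, a difference of -2.25.

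H3K4me3 and H3K27me3 of HoxA met near the middle of the window in Mbd3+/+ MEF, and H3K27ac and H3K27me3 did not. The meeting point used here is the position that puts the most active-mark bases on one side and the most H3K27me3 bases on the other. For H3K4me3 it lay at 52163996, 69.0 kb into the window, with 79.6% of marked bases on their own side. H3K27me3 covered 11.5% of the Hoxa2 side of that point and 96.5% of the Hoxa13 side, and H3K4me3 covered 36.0% and 22.3%. In Mbd3flox/- MEF the point lay at 52160826, 65.8 kb in, but H3K4me3 covered 77.7% of the Hoxa13 side, and 59.8% of marked bases were on their own side. For H3K27ac the point lay at 52101257 in Mbd3+/+ MEF, 6.26 kb into the window at the edge of the gap, and at 52211085 in Mbd3flox/- MEF, 116 kb in. In HoxB, HoxC and HoxD of Mbd3flox/- MEF no internal position separated either active mark from H3K27me3 better than the window's edge. The same held in Mbd3+/+ MEF for H3K4me3 in these clusters and for H3K27ac in HoxD. For H3K27ac of Mbd3+/+ MEF the point was 96129545 in HoxB and 102789593 in HoxC. Acetylation was on the Hoxb1 and Hoxc4 sides, with 64.3% and 60.8% of marked bases on their own side. H3K27me3 still covered 67.3% and 91.9% of these sides, against 80.5% and 100% of the opposite sides. It therefore did not give way to acetylation at either point.

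At day 4 of Mbd3+/+ cells the acetylated block of HoxA, its longest segment with gaps of up to 1 kb closed, ran from 52107179 to 52176076. By this choice it was nearly filled, with 97.4% covered by 4 peaks. The low end of this block lay within 547 bp in 4 lists: 52107261 in Mbd3flox/- MEF, 52107179 and 52107719 at day 4, and 52107172 at day 8 of Mbd3+/+. The Hoxa13-side end was less fixed: 52217008, 52176076, 52184680 and 52168613 in the same order, a span of 48395 bp. The stretch that H3K27me3 held in Mbd3+/+ MEF, from 52172186 to the window's end, was 83.6% acetylated in Mbd3flox/- MEF but 6.24% acetylated at day 4 of Mbd3+/+ and 33.8% at day 4 of Mbd3flox/-.

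H3K27me3 was nearly undetected in the clusters of induced cells. It covered 1.88% of HoxA, 0.636% of HoxB, 1.00% of HoxC and 0.778% of HoxD at day 4 of Mbd3+/+. At day 4 of Mbd3flox/- it covered 0.165%, 0.0795%, 0.230% and 0%, and at day 8 of Mbd3+/+ between 0.705% and 2.97% of a window. The clusters still took 29 of the 570 peaks of the Mbd3+/+ day 4 list (5.09%, 3.57 to 7.21), 4 of 567 in Mbd3flox/- (0.705%) and 17 of 939 at day 8 (1.81%, 1.13 to 2.88). In MEF they took 0.207% and 0.183% of peaks, and in the iPS and ES lists 1.39% to 1.67%. All 29 of the day 4 peaks overlapped a peak of Mbd3+/+ MEF, as did 95.4% of that whole list, and 17 of the 29 overlapped a peak of Mbd3+/+ iPS, as did 59.1% of the list. In HoxA 11 of the day 4 peaks lay in the stretch held by H3K27me3 in MEF and none in the acetylated block. With lists this short, how much of the difference from MEF comes from enrichment of the libraries was not tested.

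By day 8 the acetylation of HoxA and HoxB had parted by genotype. H3K27ac covered 53.0% of HoxA and 36.3% of HoxB at day 4 of Mbd3+/+, and 47.4% and 33.1% at day 8. The Mbd3flox/- cells had 41.3% of HoxA and 34.5% of HoxB covered at day 4, and 1.48% and 2.96% at day 8. HoxC and HoxD were near 0 in both genotypes at day 8, at 1.22% and 0.825% in Mbd3+/+ and 1.37% and 0% in Mbd3flox/-. The whole of the Mbd3flox/- day 8 signal in the windows was 4 peaks, of which the widest was chr11:96111350-96115664 in HoxB (4315 bp, the authors' score 596).

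Most bins acetylated at day 4 were not acetylated at day 8 in each of the 4 clusters of Mbd3flox/- cells, and in HoxC and HoxD but not HoxA and HoxB of Mbd3+/+ cells. Of the 191 Hox bins acetylated at day 4 of Mbd3flox/-, 181 were not acetylated at day 8 (94.8%, 90.6 to 97.1), against 44.1% of all bins. In Mbd3+/+ cells it was 30 of 162 (18.5%, 13.3 to 25.2), against 22.0% of all bins, and 26 of 94 (27.7%) without HoxA. By cluster the Mbd3+/+ counts were 4 of 68 in HoxA (5.88%), 8 of 73 in HoxB (11.0%), 15 of 17 in HoxC (88.2%) and 3 of 4 in HoxD, and the Mbd3flox/- shares lay between 91.4% and 100%. Of the 133 Hox bins acetylated at day 8 of Mbd3+/+, 126 were not acetylated at day 8 of Mbd3flox/- (94.7%, 89.5 to 97.4), against 53.2% of all bins. The 2 day 8 lists covered similar totals, 97.1 Mb in Mbd3+/+ and 91.0 Mb in Mbd3flox/-. Over the 4 windows the coverage was 22.1% and 1.65%, a difference of -20.5 percentage points, which was -13.3 without HoxA.

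**Figure D2:**
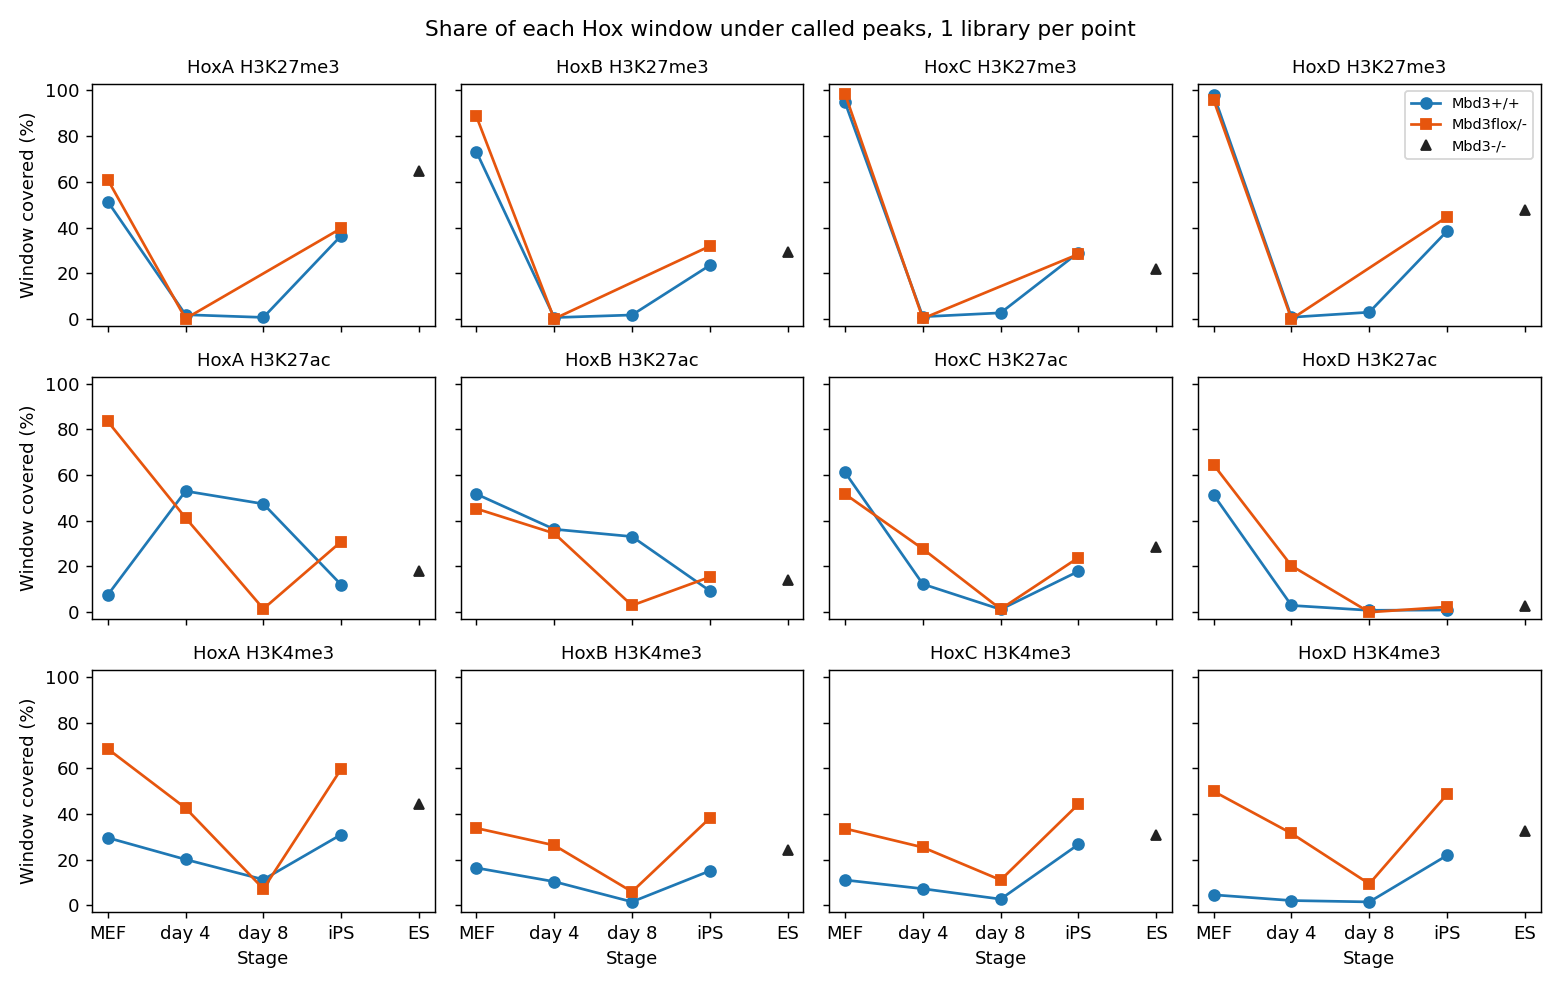
Share of each window (rows: mark; columns: cluster) covered by called peaks, in percent, at each stage; circles are Mbd3+/+, squares Mbd3flox/- and triangles Mbd3-/- ES cells, with 1 library per point and no error bar. H3K27ac of HoxA and HoxB stays at 33.1% to 47.4% at day 8 of Mbd3+/+ and is at most 2.96% in Mbd3flox/-; the line across day 8 in the H3K27me3 panels of Mbd3flox/- spans a stage not analysed.

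H3K4me3 was lowest in the clusters at day 8 in both genotypes. In Mbd3+/+ cells it covered 29.6% of HoxA in MEF, 20.1% at day 4, 11.3% at day 8 and 31.0% in iPS cells. The HoxA values of Mbd3flox/- cells were 68.5%, 42.6%, 7.24% and 59.7%. Day 8 was also the lowest stage in HoxB, HoxC and HoxD, at 1.52% to 2.74% in Mbd3+/+ and 5.98% to 11.1% in Mbd3flox/-. Of the Hox bins with H3K4me3 at day 4, 49 of 61 in Mbd3+/+ (80.3%, 68.7 to 88.4) and 137 of 180 in Mbd3flox/- (76.1%, 69.4 to 81.8) had none at day 8. The shares over all bins were 26.5% and 36.9%. The bins covered at day 8 were nearly all covered in iPS cells of the same genotype: all but 1 of 24 in Mbd3+/+ (4.17% not covered, against 1.46% of all bins) and all but 1 of 47 in Mbd3flox/- (2.13%, against 2.95%).

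More of the clusters was under H3K4me3 in Mbd3flox/- than in Mbd3+/+ lists at every stage but day 8 of HoxA. In MEF 171 of 265 Hox bins were covered in Mbd3flox/- alone (64.5%, 58.6 to 70.0), against 57.1% of all bins, and none of 94 in Mbd3+/+ alone, against 0.463%. In iPS cells it was 134 of 276 (48.6%, 42.7 to 54.4), against 26.6% of all bins, and 1 of 143 in Mbd3+/+ alone, against 17.0%. The difference was greatest in HoxD of MEF, where H3K4me3 covered 4.61% in Mbd3+/+ and 49.9% in Mbd3flox/-. The Mbd3flox/- MEF list covered 49.0 Mb in all and the Mbd3+/+ list 21.1 Mb, and their median peak widths were 1970 and 1088 bp; the part of these list-wide differences in the Hox values was not tested. In iPS cells the totals were closer, 52.3 and 46.3 Mb.

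**Figure D3:**
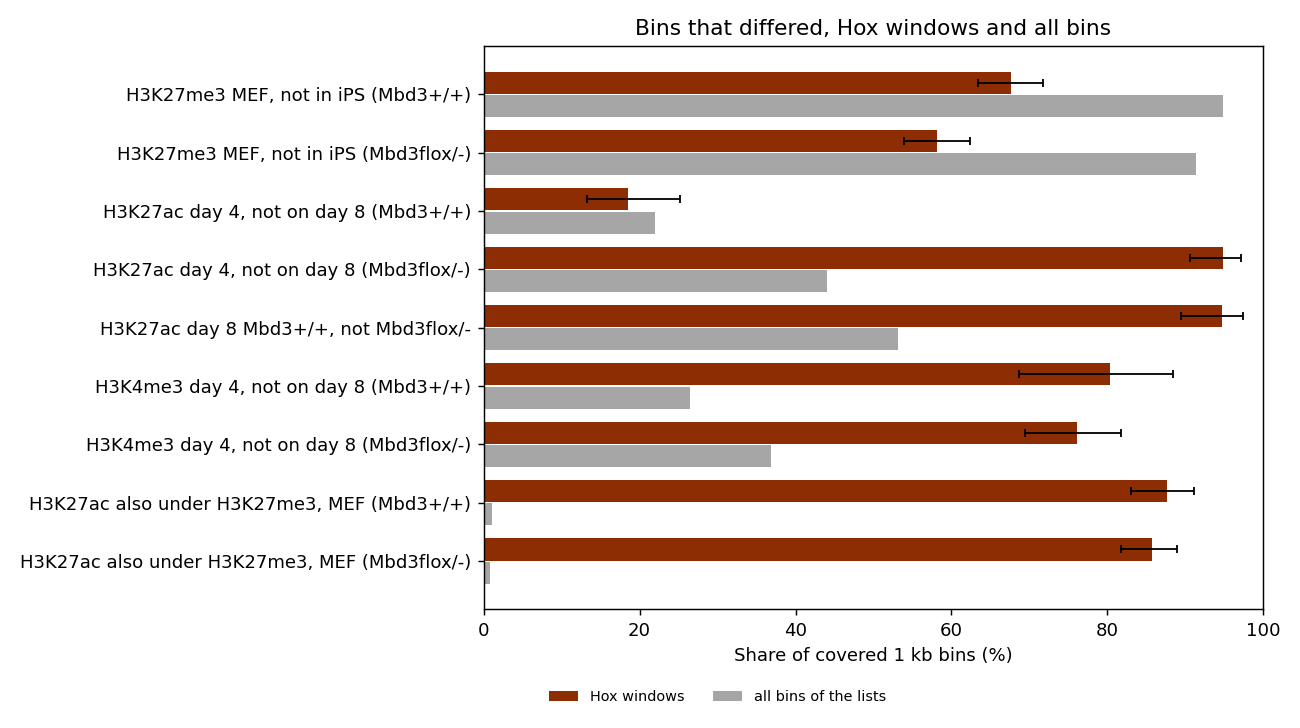
Share of covered 1 kb bins, in percent, that differed between lists or lay under a pair of marks, in the Hox windows (brown, with 95% Wilson intervals that count bins only) and over all bins of the same lists (grey). The share of day 4 H3K27ac bins without the mark at day 8 is 94.8% in the windows of Mbd3flox/- and 44.1% over all bins, and 18.5% and 22.0% in Mbd3+/+, where the clusters differed among themselves.

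In iPS and ES cells the clusters were again under H3K27me3, in many short peaks. The mark covered 36.5%, 23.5%, 29.1% and 38.5% of HoxA, HoxB, HoxC and HoxD in Mbd3+/+ iPS cells. In Mbd3flox/- iPS cells it covered 39.7%, 31.9%, 28.4% and 44.7%, and in Mbd3-/- ES cells 64.7%, 29.3%, 21.8% and 47.6%. Median peak widths in the windows were 341 bp, 895 bp and 309 bp in these lists, against 2519 and 3962 bp in the Mbd3+/+ and Mbd3flox/- MEF lists. Over the whole lists the medians were 262, 619 and 216 bp, against 1097 and 1309 bp in MEF. Whole-list totals were 8.35, 10.7 and 9.38 Mb, against 62.8 and 68.3 Mb in MEF. The part of these list-wide differences in the Hox values was not tested. The 4 windows together were 30.8% covered in Mbd3+/+ and 35.4% in Mbd3flox/- iPS cells; this difference of 4.62 percentage points became -6.42 when gaps of up to 1 kb were closed. With scores of at least 100 it was 10.3, and with equal numbers of top peaks 9.39. The widest peak of the mark in the windows of these 3 lists was chr6:52211683-52216548 in ES cells, 4866 bp on the Hoxa13 side of HoxA, with the authors' score of 2327.

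Against the fibroblasts, and with 500 bp needed per bin, H3K27me3 was missing from fewer of the MEF bins in the clusters than over the lists as a whole. Of the Hox bins covered in MEF, 317 of 468 were not covered in Mbd3+/+ iPS cells (67.7%, 63.4 to 71.8), against 94.8% of all bins. For Mbd3flox/- it was 299 of 514 (58.2%, 53.9 to 62.4), against 91.4%. When 1 bp of a bin was enough to count as covered, the Mbd3+/+ share was 32.3% (162 of 502) and the Mbd3flox/- share 47.0% (254 of 540), so the order of the genotypes turned. The share over all bins was not computed at 1 bp. Peaks of the mark in iPS cells were wider in the windows than over the lists, with medians of 341 against 262 bp (Mbd3+/+) and 895 against 619 bp (Mbd3flox/-). The part of this in the 500 bp shares was not tested. Of the H3K4me3 bins, 52 of 143 in Mbd3+/+ iPS cells (36.4%, against 4.41% over all bins), 152 of 276 in Mbd3flox/- iPS cells (55.1%, against 7.73%) and 98 of 195 in ES cells (50.3%, against 3.37%) were also under H3K27me3. For H3K27ac the shares were 8 of 59 (13.6%, against 0.349%), 43 of 108 (39.8%, against 0.390%) and 17 of 93 (18.3%, against 0.436%). H3K27me3 covered 30.8%, 35.4% and 39.1% of the 4 windows in these lists. Within the clusters, acetylated bins of Mbd3+/+ iPS and ES cells thus lay under it less often than the windows as a whole. Those of Mbd3flox/- iPS cells lay under it about as often (39.8% against 35.4%). The H3K4me3 bins of each group lay under it more often, least so in Mbd3+/+ iPS cells (36.4% against 30.8%). These shares count bins, and the coverage counts bases.

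H3K27ac and H3K27me3 of HoxB met at almost 1 place in the 3 pluripotent groups. The meeting point of H3K27ac and H3K27me3 was 96134245 in Mbd3+/+ iPS, 96134742 in Mbd3flox/- iPS and 96134721 in Mbd3-/- ES cells, a span of 497 bp. In these lists 86.0%, 83.0% and 85.4% of marked bases were on their own side, with acetylation on the Hoxb13 side and H3K27me3 on the Hoxb1 side. H3K27me3 covered 8.51%, 4.63% and 6.42% of the Hoxb13 side and 36.9%, 56.5% and 49.9% of the Hoxb1 side. The point moved to 96117820 in Mbd3+/+ iPS when gaps of up to 1 kb were closed and to 96117595 in Mbd3flox/- iPS when peaks scored at least 100. H3K27ac covered 18.6%, 20.1% and 23.0% of the Hoxb13 side in Mbd3+/+ iPS, Mbd3flox/- iPS and ES cells. Of the Hoxb1 side it covered 1.11%, 11.1% and 6.29%. In Mbd3+/+ MEF, split at 96129545, it covered 16.7% of the Hoxb13 side and 80.2% of the Hoxb1 side. The difference between Mbd3+/+ MEF and iPS cells thus lay on the Hoxb1 side, where the long fibroblast block was. For H3K4me3 the point was 96134512 in Mbd3+/+ iPS, 96134790 in ES cells and 96186471 in Mbd3flox/- iPS. Only 66.6%, 64.4% and 62.8% of marked bases were on their own side. In Mbd3+/+ iPS and ES cells H3K4me3 covered more of the Hoxb1 side (16.6% and 30.4%) than of the Hoxb13 side (13.4% and 17.3%). There H3K27me3 changed at the point, but H3K4me3 did not give way to it.

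In HoxA and HoxC the points of the 3 groups lay further apart. Other settings were tried for the pluripotent groups in HoxB only. In HoxC the H3K27ac points were 102774343, 102768300 and 102787812 in Mbd3+/+ iPS, Mbd3flox/- iPS and ES cells, a span of 19512 bp, with acetylation on the Hoxc13 side in each. In HoxA they were 52115278, 52163586 and 52111393, a span of 52193 bp, with acetylation on the Hoxa2 side. There the points of Mbd3+/+ iPS and ES cells lay near each other, and that of Mbd3flox/- iPS cells lay apart. In HoxD there was almost no acetylation to separate: H3K27ac covered 0.967%, 2.31% and 2.73% of the window.

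H3K27ac of the iPS clusters differed by genotype as well. It covered 12.0%, 9.34%, 17.9% and 0.967% of HoxA, HoxB, HoxC and HoxD in Mbd3+/+ iPS cells and 30.9%, 15.4%, 23.9% and 2.31% in Mbd3flox/- iPS cells. Of the 108 Hox bins acetylated in Mbd3flox/- iPS cells, 64 were not acetylated in Mbd3+/+ iPS cells (59.3%, 49.8 to 68.1), against 11.4% of all bins. Over the 4 windows the difference was 7.90 percentage points, with 3.78 at scores of at least 100 and 4.80 without HoxA. At the next stage, 113 of the 133 Hox bins acetylated at day 8 of Mbd3+/+ were not acetylated in iPS cells (85.0%, 77.9 to 90.0), against 45.4% of all bins. In Mbd3flox/- cells 99 of the 108 iPS bins had none at day 8 (91.7%, 84.9 to 95.6), against 29.2%.

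Pluripotent cells shared 2 acetylated islands on the Hoxb13 and Hoxc13 sides. Each was set as the longest acetylated segment of its cluster in Mbd3+/+ iPS cells, with gaps of up to 1 kb closed. The high coverage in that list follows from this choice, and only the other lists show sharing. The HoxB island, chr11:96109941-96117820 (7.88 kb), was 100%, 89.8% and 100% acetylated in Mbd3+/+ iPS, Mbd3flox/- iPS and Mbd3-/- ES cells. It had H3K27ac in every list, covering 81.4% and 78.9% in Mbd3+/+ and Mbd3flox/- MEF, 37.6% and 70.8% at day 4 and 38.7% and 54.8% at day 8. H3K27me3 covered 91.0% and 100% of it in MEF and none in the iPS and ES lists. The widest acetylated peak of Mbd3flox/- cells at day 8 lay in it.

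The HoxC island, chr15:102760046-102771471 (11.4 kb), was 98.5%, 62.4% and 97.8% acetylated in the same 3 pluripotent groups. No MEF, day 4 or day 8 list had H3K27ac there. H3K27me3 covered all of it in both MEF lists, 1.79% in Mbd3+/+ iPS cells and none in Mbd3flox/- iPS and ES cells. H3K4me3 covered none of it in Mbd3+/+ MEF, day 4 or day 8 lists, but 29.0%, 19.3% and 39.8% in those of Mbd3flox/-, and 77.3%, 74.2% and 81.5% in the pluripotent groups. Mi2B was called in it at day 4 and day 8 of Mbd3flox/- (9.43% and 18.3%), in Mbd3+/+ iPS (34.6%) and in ES cells (26.5%), and not in Mbd3flox/- iPS cells, whose Mi2B list held 3462 peaks against 26992 in Mbd3+/+ iPS.

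**Figure D4:**
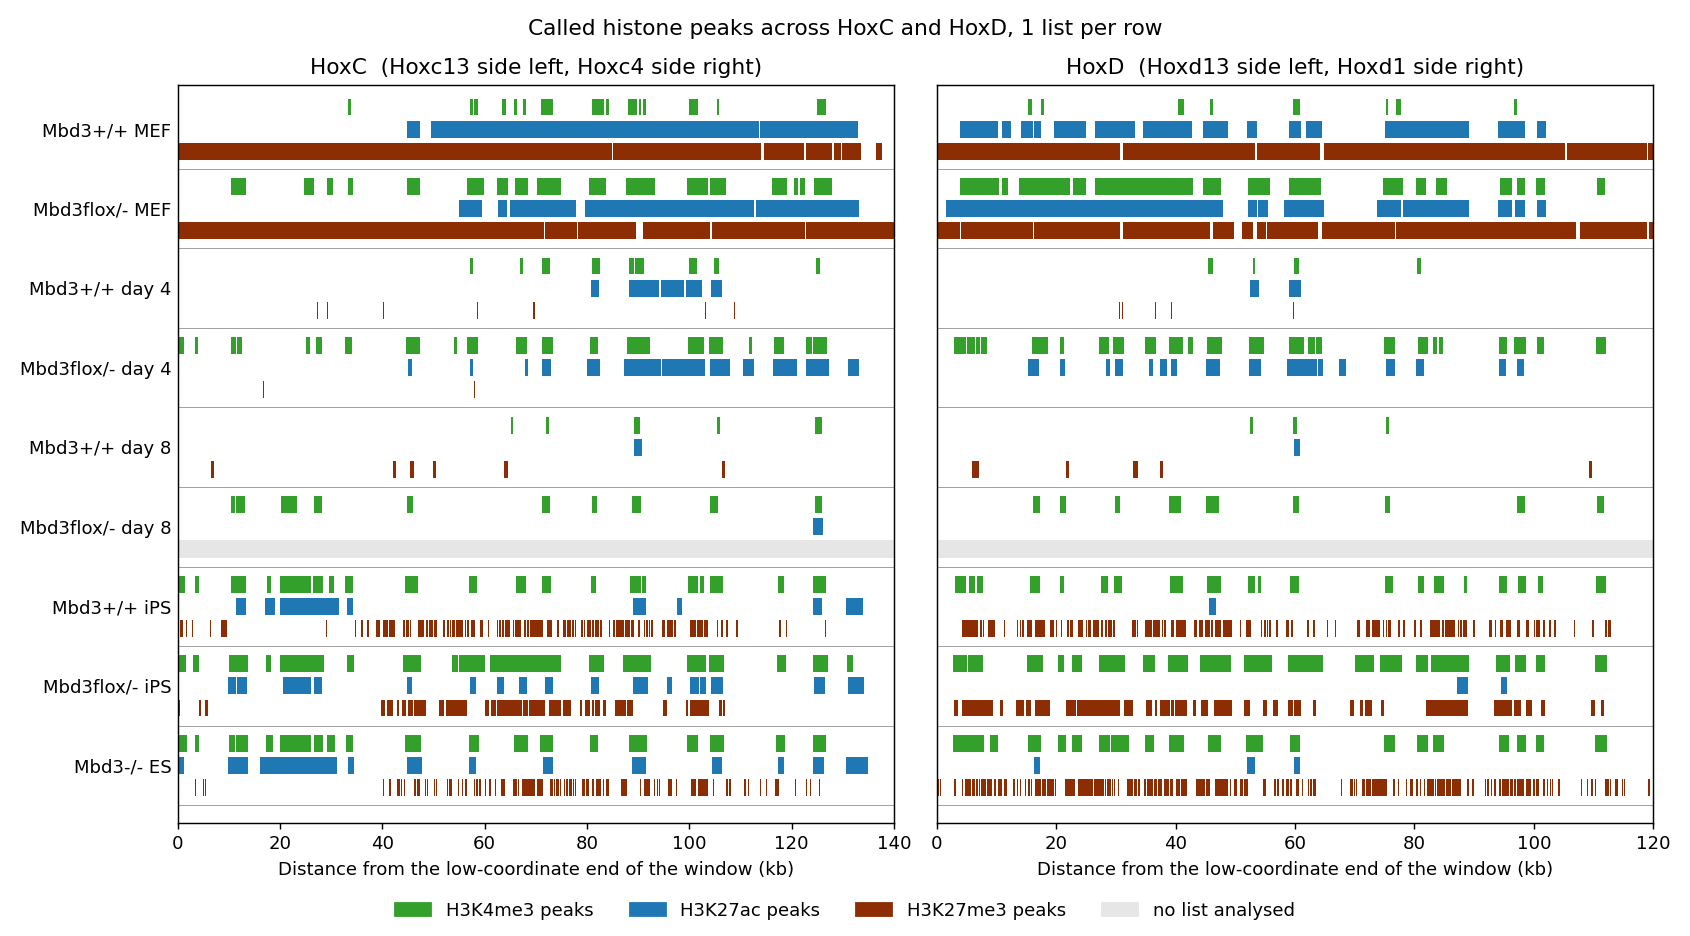
Called peaks of H3K4me3 (green), H3K27ac (blue) and H3K27me3 (brown) along HoxC and HoxD, with 1 row per list and distance from the low-coordinate end of the window in kb. The HoxC island 20.0 to 31.5 kb into the window is brown in the MEF rows and blue in the iPS and ES rows, and HoxD is nearly free of blue in the day 8, iPS and ES rows.

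Oct4 peaks in the clusters were most numerous at day 4, when the Oct4 lists of each genotype were also longest. Neither MEF list had an Oct4 peak in a window, and these lists held 274 and 489 peaks in all. At day 4 there were 19 peaks in Mbd3+/+ and 26 in Mbd3flox/- cells, 32.2 and 44.1 per Mb, against 6.35 and 12.8 per Mb over the genome. At day 8 of Mbd3flox/- there were 7, or 11.9 per Mb against 7.50 over the genome. In iPS cells there were 7 in Mbd3+/+ (11.9 against 4.50) and 2 in Mbd3flox/- (3.39 against 1.26), from lists of 11881 and 3331 peaks where those of day 4 held 16785 and 33755. With scores of at least 100, 10 peaks were left at day 4 in each genotype. The Mbd3+/+ day 4 peaks lay 10 in HoxA, 8 in HoxB, 1 in HoxC and none in HoxD, and those of Mbd3flox/- 8, 9, 5 and 4.

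Most day 4 Oct4 peaks lay on acetylated sequence. In Mbd3+/+ cells 18 of 19 overlapped H3K27ac, against 65.9% of that Oct4 list, and 12 overlapped H3K4me3, against 11.8%. In Mbd3flox/- cells it was 16 of 26 on H3K27ac, against 51.3%, and 14 on H3K4me3, against 15.7%. The acetylated HoxB block of Mbd3+/+ held 7 of its 8 HoxB peaks, among them its highest-scoring Hox peak, chr11:96194690-96196352, with the authors' score of 367. In Mbd3flox/- cells the highest-scoring was chr6:52218906-52219250 in HoxA, with a score of 228, on the Hoxa13 side and outside the marks of the same stage.

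A few sites recurred. Peaks of Oct4, Mi2B or Mbd3 in the windows fell into 105 sites when overlapping peaks were joined, of which 59 were in 1 list and 19 in 4 or more; the sites named next were chosen after their values were seen. A site at chr6:52102921-52104732, outside the acetylated block at the Hoxa2 side, had Oct4 in all 5 Oct4 lists of induced and iPS cells and had no H3K4me3 in any list. H3K27ac lay over it at day 4 and day 8 of Mbd3+/+ and in no other list, and H3K27me3 in both MEF lists, Mbd3+/+ iPS and ES cells. Sites at chr11:96051254-96052192 and chr11:96235641-96236868, near the outer edges of the HoxB window, had Oct4 in 3 and 2 lists, and both had Mbd3 and Mi2B in Mbd3+/+ iPS cells. The site in most lists, 7, was chr6:52171410-52172504 in HoxA, with Oct4 at day 4 of both genotypes, Mi2B in 4 lists and Mbd3 in Mbd3+/+ iPS cells. It had H3K4me3 in all 9 lists of that mark.

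Mi2B peak counts followed a different course in the 2 genotypes. The stage labels of the Mbd3+/+ day 4 and day 8 lists give day 7 and day 11, so the days compared may differ. At day 4 it had 11 peaks in the windows in Mbd3+/+ and 32 in Mbd3flox/- cells, from lists of 13930 and 14384 peaks. At day 8 it had 28 and 8, from lists of 23280 and 13125, and in iPS cells 26 and 5, from 26992 and 3462. Mbd3-/- ES cells had 42 of 29546, 71.2 per Mb against 11.2 per Mb over the genome. Each of the 7 Mi2B lists was denser in the windows than over the genome. The excess was smallest at day 8 of Mbd3flox/-, with 13.6 against 4.97 per Mb, and largest at day 4 of Mbd3flox/-, with 54.2 against 5.45. HoxD held 10 of the 32 day 4 peaks of Mbd3flox/- and none of the 11 of Mbd3+/+. With scores of at least 100 the day 4 counts were 2 and 3 and the day 8 counts 6 and 2, so most of these peaks scored under 100 and the day 4 difference between genotypes rested on them.

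The share of Mi2B peaks on acetylated sequence was near that of the whole list at day 8 of Mbd3+/+ and day 4 of Mbd3flox/-, and below it at day 8 of Mbd3flox/- and in Mbd3+/+ iPS cells. All 11 of Mbd3+/+ day 4 overlapped H3K27ac, as did 81.4% of that list, with 21 of 28 at day 8, against 78.2%, and 16 of 26 in iPS cells, against 81.1%. In Mbd3flox/- cells it was 24 of 32 at day 4, against 72.2%, but 1 of 8 at day 8, against 73.3%, when 6 of the 8 overlapped H3K4me3, against 30.9%. In ES cells 37 of 42 overlapped H3K4me3, against 50.2% of the list. The highest-scoring Mi2B peaks of Mbd3+/+ iPS and ES cells both lay in the HoxC island, at chr15:102761718-102762850 and chr15:102761823-102763021, with scores of 178 and 256. At day 4 of Mbd3+/+ it was chr6:52114925-52115376 in HoxA, with a score of 224, the 244th of its list by score. Mbd3 had 1 peak in the windows in MEF, 1 at day 4 and 4 in iPS cells of Mbd3+/+, from lists of 1177, 1944 and 8657. These came to 1.69, 1.69 and 6.78 per Mb, against 0.446, 0.736 and 3.28 over the genome. The peaks of MEF and day 4 lay in HoxB at chr11:96131076-96131580 and chr11:96160547-96160690.

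**Figure D5:**
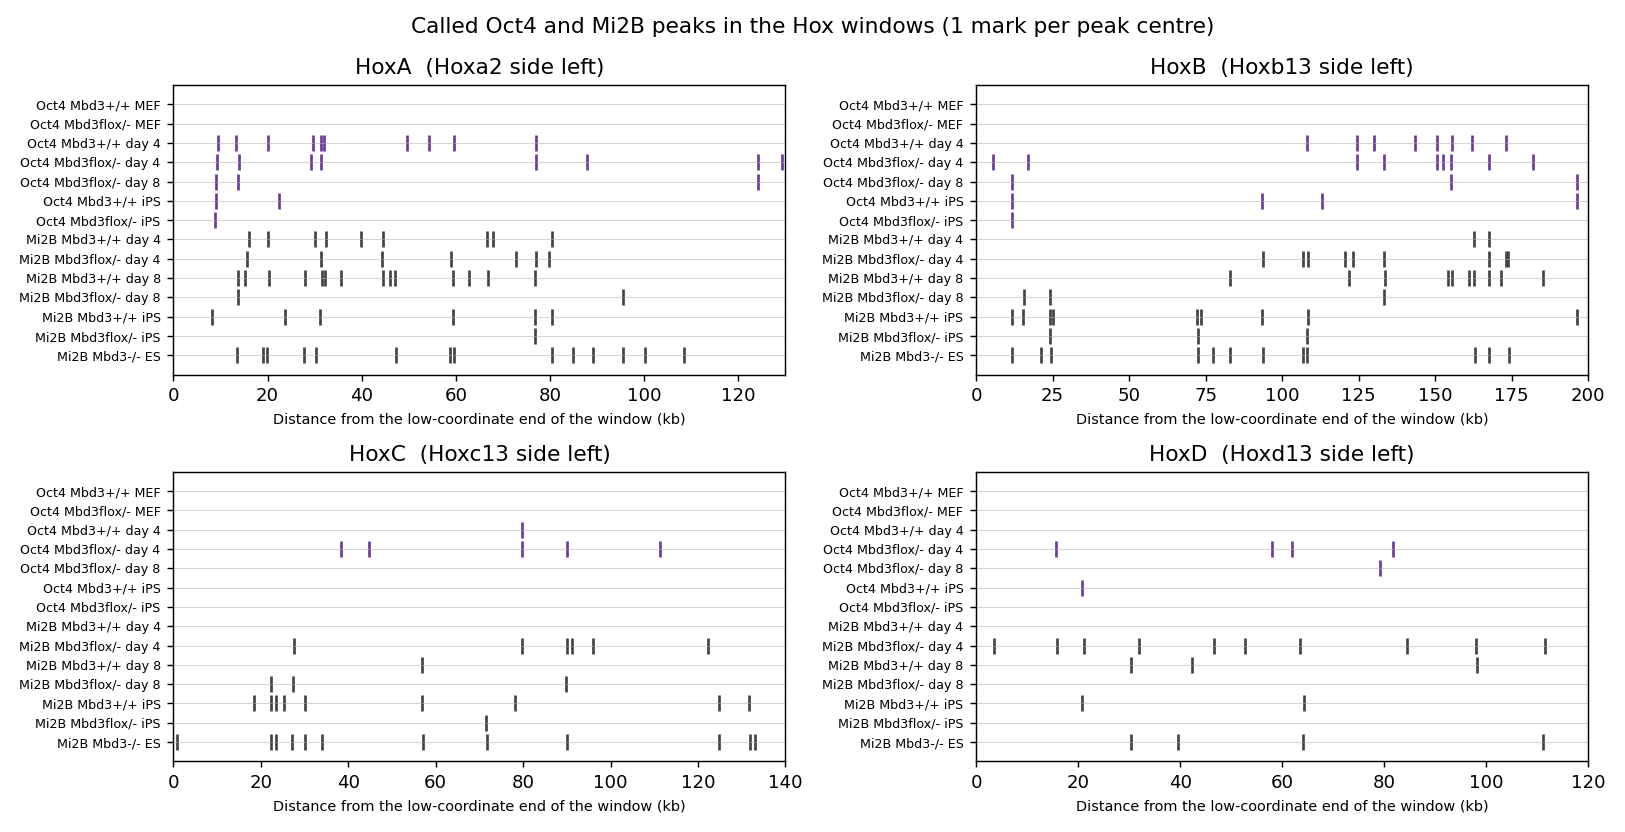
Centres of called Oct4 (purple) and Mi2B (dark grey) peaks in the 4 windows, with 1 row per list and distance from the low-coordinate end of the window in kb. Day 4 rows of Oct4 are filled in HoxA and HoxB of both genotypes, while HoxC and HoxD have 1 Oct4 peak in Mbd3+/+ and 9 in Mbd3flox/-; the MEF rows are empty.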

How the data were processed

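The files are 43 peak lists, 1 per library, from ChIP-seq of 6 antibodies; the 9 input samples were not analysed here. Per the submitters' processing notes, reads were handled with CASAVA 1.8.2, Bowtie 0.12.5 and MACS 1.4.1 on mm9; settings are not given in the sources used here. Each deposited list gives peak positions and a score made by the authors, lowest 50.0, used only within its list. Read depth is unknown, and the number and width of peaks can vary with it.

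Titles were followed where the stage label gave another day. Peaks sharing 1 bp with a Hox window were kept, overlapping peaks were merged, and covered bases were counted. A 1000 bp bin counted as covered from 500 bp, and the same shares over all bins give the background; the 95% intervals are Wilson's and cover counting only. With 1 library per group no test was made. The code was tested on simulated data (200 of 200 windows recovered) and gave the covered bases that bedtools 2.31.1 gave. Tables were computed with pandas 2.3.3, numpy 2.4.6 and scipy 1.17.1 under Python 3.11.15, and figures drawn with matplotlib 3.10.9. Genes are named from the labels and background; named peaks are the widest or highest-scoring, or lie in the stretches and recurrent sites described. Members, lists and stretches were chosen with earlier results of these data known. Alternatives were scores of at least 100, equal numbers of top peaks, trimmed windows, bridged gaps, 1 bp per bin and peaks with their larger part inside; leaving out HoxA was added after seeing the data.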

Additional observations from a re-analysis of the deposited data

Results flagged for a closer look

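H3K27ac coverage differed between stages in opposite directions in the 2 genotypes in 3 cases, each from 1 library per stage, and the differences were not tested. From MEF to day 4 the share of HoxA covered differed by 45.5 percentage points in Mbd3+/+ and by -42.2 in Mbd3flox/- cells. The first value starts from the Mbd3+/+ MEF list with no peak over 99.4 kb of HoxA. From day 8 to iPS the share of HoxA differed by -35.4 points in Mbd3+/+ and by 29.4 in Mbd3flox/-. Over the same step the share of HoxB differed by -23.8 points in Mbd3+/+ and by 12.4 in Mbd3flox/-.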

How the results depend on the processing

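Of 110 alternative values for 31 results, 84 stayed within the counting interval or tolerance of the value reported, 24 moved and 2 changed sign. The sign changed for the H3K27me3 difference between iPS genotypes with gaps bridged (-6.42 in place of 4.62 points) and for the H3K27ac difference between MEF genotypes without HoxA (-2.25 in place of 15.0). With scores of at least 100, the iPS genotype difference was 10.3 points for H3K27me3 and 3.78 for H3K27ac, and the iPS minus MEF difference of H3K27me3 was -57.9 (Mbd3+/+) and -57.1 (Mbd3flox/-). The Mbd3+/+ value was -31.8 with gaps bridged. The day 8 H3K27ac difference was -13.3 points without HoxA, and the day 8 minus day 4 difference of Mbd3flox/- was -34.1 in trimmed windows. The share of Mbd3+/+ H3K27ac bins lost from day 4 to day 8 was 27.7% without HoxA, and that of Mbd3flox/- MEF bins not acetylated in Mbd3+/+ MEF was 7.05%. The iPS difference in H3K27ac was 4.80 points without HoxA. The share of H3K27me3 bins lost from MEF to iPS was 81.8% and 67.7% (Mbd3+/+ and Mbd3flox/-) with scores of at least 100, and 32.3% and 47.0% with 1 bp per bin. The share of H3K4me3 bins lost from day 4 to day 8 was 89.8% and 84.8% with scores of at least 100, and 68.2% in Mbd3+/+ with 1 bp per bin. The HoxB meeting point moved to 96117820 (Mbd3+/+ iPS, gaps bridged) and 96117595 (Mbd3flox/- iPS, scores of at least 100). With that score, Oct4 peaks at day 4 numbered 10 and 10, and Mi2B peaks 2 and 3 at day 4 and 6 and 2 at day 8, in Mbd3+/+ and Mbd3flox/- order. The cause was not tested. No paired analysis was possible because each group had 1 library per antibody.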
